A study of Mus musculus with 6 samples.

Results

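The genes examined here are 10 genes of the naive and general pluripotency programme of mouse embryonic stem (ES) cells: the transcription factors Pou5f1 (also called Oct4), Sox2, Sall4 and Nr0b1, the chromatin-associated factor Utf1, the RNA-binding protein Lin28a, and the developmental pluripotency-associated genes Dppa2, Dppa3, Dppa4 and Dppa5a. They were picked by name, through their Ensembl identifiers, and all 10 were found among the 22933 genes of the table. The cells carry floxed Ezh2 alleles (Ezh2 fl/fl), and Ezh2 is the catalytic subunit of Polycomb repressive complex 2. The tamoxifen group held 3 total-RNA libraries from cells given 800 nM 4-hydroxytamoxifen for 96 h, with RNA taken 4 days after treatment. Its columns are labelled Ezh2dd (Ezh2 delta/delta), the deleted genotype. The untreated group held 3 libraries of the same Ezh2 fl/fl cells without the drug. Both groups grew on gelatin, in medium with 10% fetal calf serum, 5% serum replacement and 1000 U/ml leukaemia inhibitory factor. The labels do not name the Cre recombinase or say which exons are floxed, and no library of drug-treated cells without floxed alleles was analysed here, so drug and deletion cannot be told apart. The labels do not say that the replicates were separate cultures, so p-values measure the spread between these libraries, which may be technical.

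Pou5f1 and Sox2 bind DNA side by side at the enhancers of ES cell genes, and Sall4 and Nr0b1 are among the proteins that bind Pou5f1. Lin28a binds precursors of the let-7 microRNA family and blocks their maturation, while mature let-7 represses Lin28a through its 3′ untranslated region. Dppa2 and Dppa4 are neighbouring genes whose SAP-domain proteins act together on chromatin and can activate genes of the 2-cell embryo. Dppa3 (also called Stella) protects maternal DNA methylation in the zygote, and Dppa5a encodes a KH-domain RNA-binding protein. The comparison asks what levels these genes had in the treated cells, relative to untreated cells.

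The labelled deletion was checked on Ezh2 itself, whose deposited value was 2258, 2559 and 2609 in the tamoxifen libraries, against 4165, 3620.4 and 3483 in the untreated libraries. All 3 tamoxifen libraries were lower, by 0.60 on the log2 scale, but Ezh2 did not pass the test over all genes (adjusted p 0.195, limma), and the value covers the whole gene, undeleted exons included. Depth was low, at 2334548 to 5111286 reads assigned to genes in the tamoxifen libraries and 2678432 to 5689666 in the untreated libraries. The 10 most abundant genes took 20.2% to 36.7% of the reads of a library. The deposited value is normalized and is not a read count, but the reads behind each value could be recovered from its arithmetic form, and both are given below. Markers of the ES cell state other than the 10 genes were higher for 2 and lower for 8 of 10 tested (median log2 fold change -0.03), and their deposited values summed to 52748 to 55461 in the tamoxifen libraries and 49341 to 63721 in the untreated libraries. Markers of primitive endoderm, an extraembryonic lineage, were higher in the tamoxifen group for 12 of 12 genes and summed to 42279 to 49042 there, against 20746 to 24654 in untreated cells, with none at 0. Trophoblast markers were higher for 9 of 9 tested and summed to 12435 to 14253 in tamoxifen libraries and 7076 to 8712 in untreated libraries. Only 5 of those 9 had at least 10 reads on average. Fibroblast or feeder markers were higher for 4 and lower for 2 of 6 tested, as were neural markers. Primed epiblast markers were higher for 3 and lower for 3 of 6, and mesendoderm markers higher for 4 and lower for 4 of 8. None of the markers in these lists was called by limma. The part of such cells in the values of the 10 genes was not tested, and in bulk RNA fewer cells of a type and less RNA per cell cannot be told apart.

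The Dppa genes share long stretches of sequence with other annotated loci, most of them processed pseudogenes, which bears on how their reads can be assigned. Each transcript was cut into all its windows of 40 bases, and a window counted as shared if it occurred without a mismatch in a transcript of another annotated gene (GENCODE vM21, mouse build GRCm38). By this count 48.4% of the Dppa5a windows were shared (281 of 580), with 10 other genes. For Dppa4 the share was 41.0% (591 of 1440), with 3 genes. Dppa2 shared 31.5% of its windows (758 of 2408) with 8 genes, and Dppa3 shared 25.1% (199 of 794) with 4 genes. Pou5f1 shared 2.95%, with 2 pseudogenes, and Sox2, Sall4, Utf1, Lin28a and Nr0b1 shared none. The counting rule for reads that match several places is not given in the sources used here. The 4 Dppa genes are therefore reported with that uncertainty.

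**Figure D1:**
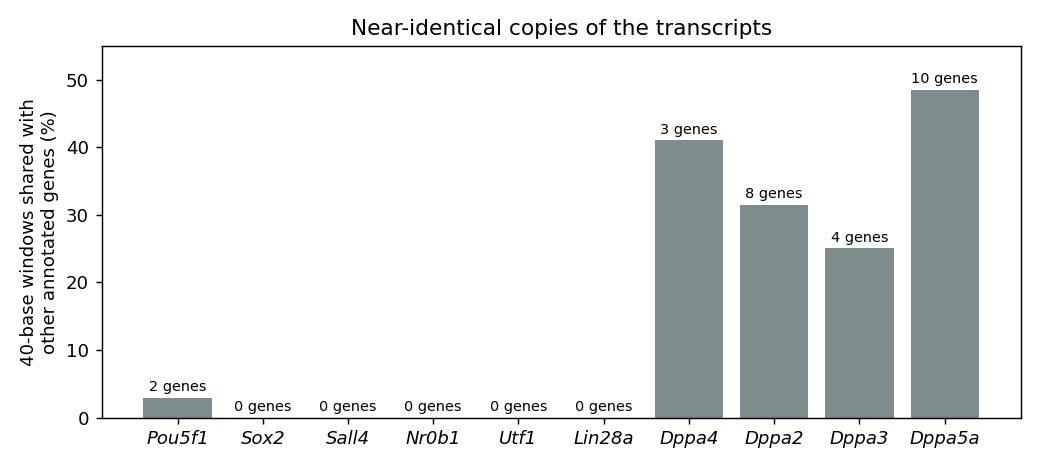
Share of 40-base windows of each transcript that also occur in another annotated gene (vertical axis, percent), with the number of such genes above each bar. The 4 Dppa genes lie between 25.1% and 48.4%, and the other 6 genes lie at or below 2.95%.

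The following are 80-base coding stretches of each Dppa gene and of one of its copies, read from GRCm38 5′ to 3′ on the gene's strand. Each was picked as the stretch with the fewest differences that held a shared window, leaving out identical stretches. They show each pair where it is closest, and not how much separates it over its length. The capital marks the single base that differs within the pair. These coordinates are on GRCm38, while the submitters' processing notes name the older build mm9 for the deposited values. A read lying beside that base, and not over it, matches both places.
Dppa2, chr16:48315683-48315762, plus strand: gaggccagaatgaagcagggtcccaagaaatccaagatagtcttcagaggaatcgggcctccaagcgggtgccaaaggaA
Gm9788, chr19:41460209-41460288, plus strand: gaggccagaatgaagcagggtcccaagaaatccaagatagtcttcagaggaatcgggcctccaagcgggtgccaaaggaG
Dppa3, chr6:122628655-122628734, plus strand: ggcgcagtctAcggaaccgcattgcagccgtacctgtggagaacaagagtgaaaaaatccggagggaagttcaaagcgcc
Dppa3-ps, chrX:37625854-37625933, minus strand: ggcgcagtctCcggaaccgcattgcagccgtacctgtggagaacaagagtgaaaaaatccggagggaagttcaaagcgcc
Dppa4, chr16:48287903-48287982, plus strand: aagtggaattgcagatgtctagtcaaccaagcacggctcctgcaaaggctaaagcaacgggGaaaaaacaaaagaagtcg
Gm14058, chr2:122215226-122215305, minus strand: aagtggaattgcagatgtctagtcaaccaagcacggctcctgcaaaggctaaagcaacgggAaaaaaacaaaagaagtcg
Dppa5a, chr9:78367806-78367885, minus strand: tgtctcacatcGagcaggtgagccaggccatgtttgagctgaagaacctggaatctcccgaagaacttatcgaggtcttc
Gm15310, chr16:94359085-94359164, minus strand: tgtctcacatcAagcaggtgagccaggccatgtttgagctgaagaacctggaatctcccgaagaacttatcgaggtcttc

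Over the whole alignable length, Dppa2 and Gm9788 were 99.3% identical over 906 bases. Dppa4 and Gm14058 were 98.9% identical over 735 bases. Dppa3 and Dppa3-ps were 98.2% identical over 451 bases, and Dppa5a and Gm15310 were 96.9% identical over 357 bases. Of these copies, Gm9788 has values of its own in the table, and the other 3 were not analysed here.

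Lin28a and Sall4 carry matches to the let-7 seed behind their stop codons, so those sites are shown with the microRNAs. All 9 let-7 family names found in the RefSeq table for GRCm38.p6 (miR-98 included) had the same seed, bases 2 to 8, printed in capitals in the microRNAs. In the sites, capitals mark the 7 bases CTACCTC that pair with the seed, searched on the transcript strand behind the coding part.
mmu-let-7a-5p: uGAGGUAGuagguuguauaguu
mmu-let-7g-5p: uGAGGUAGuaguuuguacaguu
Lin28a first site, chr4:134005189-134005218, minus strand: ttggagtgcacagcctgttgaaCTACCTCa
Lin28a second site, chr4:134004551-134004580, minus strand: atgctttgagatcgccacaaacCTACCTCa
Sall4 site, chr2:168748940-168748969, minus strand: ggatgtgagggctttaatttatCTACCTCa

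The Lin28a sites lie 912 and 1550 bases behind the stop codon and the Sall4 site 1085 bases behind it. The other 8 genes held no such match in this part of the transcript. Among 2968 genes with a part behind the stop codon at least as long as that of Lin28a (2778 bases), 16.3% held a match within that length and 1.79% held 2 or more. Among 6035 genes compared over the 1700 bases of Sall4, 10.3% held one. A match describes the letters only, and small RNAs were not analysed here.

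None of the 10 genes was called between tamoxifen and untreated cells by the test over all 17427 genes whose mean value reached 10 (limma on log2(value + 1), Benjamini-Hochberg adjusted p under 0.05). Over all those genes 34 were called, or 0.195%, with 22 higher (0.126%) and 12 lower (0.0689%). On that scale 4 of the 10 were higher and 6 lower in tamoxifen libraries, with a median log2 fold change of -0.05, beside -0.0037 over all genes tested, of which 49.4% were higher. At an unadjusted p under 0.05 the count was 2 of 10, Dppa4 and Nr0b1, both lower, beside 9.34% of all genes in either direction and 3.99% lower. That count ran from 1 to 3 when a library was left out. Nr0b1 missed it in 4 of 6 such fits and in 5 of 12 other alternatives, Dppa2 (lower) joined it without tamoxifen replicate 2, and Sox2 (higher) joined it without untreated replicate 1. On deposited values all 10 95% intervals lay inside a 2-fold change in either direction. On recovered reads that of Nr0b1 passed 2-fold, at -1.10 to -0.14 on the log2 scale. Only Dppa4 had groups that did not overlap on deposited values, against 15.3% of all genes tested (7.92% higher and 7.33% lower). On recovered reads, expressed per 1000000 reads of the library after trimmed-mean scaling (RPM), 3 genes had groups that did not overlap, Dppa4, Dppa5a and Nr0b1, all lower in tamoxifen cells, against 13.5% of all genes in either direction and 7.17% lower.

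**Figure D2:**
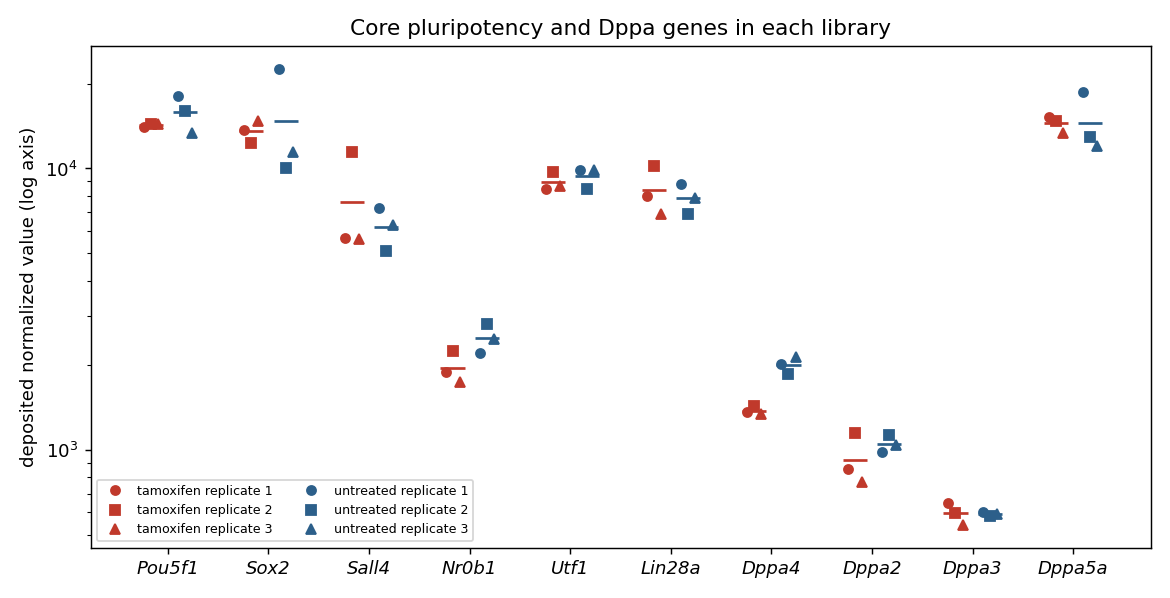
Deposited normalized value of each gene in each library (log axis), tamoxifen in red to the left of untreated in blue, with symbols for replicates 1 to 3 and a line at each group mean. Dppa4 has no overlap between groups, and the largest spreads are those of Sox2 in untreated libraries and Sall4 in tamoxifen libraries.

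Gene positions below are on GRCm38. Pou5f1 (ENSMUSG00000024406, chr17:35506018-35510772), the POU-domain factor at the head of the network, had values of 14062, 14421 and 14422 in tamoxifen libraries, against 18061, 16038 and 13340.5 in untreated libraries. The tamoxifen values lay close together and inside the untreated range. They averaged 14302 ± 208 in tamoxifen cells and 15813 ± 2368 in untreated cells (SD, n = 3 each), a log2 fold change of -0.13 ± 0.14 (SE; adjusted p 0.77, limma). The interval of the ratio ran between 0.722 and 1.15. These values rested on 842 to 1710 reads in the tamoxifen libraries and 564 to 2338 in the untreated libraries.

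Sox2 (ENSMUSG00000074637, chr3:34650405-34652461), the HMG-box partner of Pou5f1, had values of 13661, 12279 and 14772 in tamoxifen libraries, against 22615, 10082 and 11461 in untreated libraries. One untreated library stood well above the other 5, and the tamoxifen values fell between the untreated ones. The mean was 13571 ± 1249 in tamoxifen cells and 14719 ± 6872 in untreated cells (SD, n = 3 each), with a log2 fold change of -0.03 ± 0.31 (SE; adjusted p 0.998, limma). Without untreated replicate 1 it was 0.33, and without tamoxifen replicate 2 it was 0.04. An annotated long RNA, Sox2ot, spans the whole of Sox2 on the same strand (2057 bases), and it was not analysed here. The value ratio of Sox2 to Pou5f1 was 0.972, 0.851 and 1.02 in tamoxifen libraries and 1.25, 0.629 and 0.859 in untreated libraries. The groups overlapped (difference in log2 ratio 0.11, exact permutation p 0.8, two-sided; the smallest p for 3 against 3 is 0.1).

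Sall4 (ENSMUSG00000027547, chr2:168748332-168767943), a zinc-finger factor that binds with Pou5f1, had values of 5644, 11462 and 5615 in tamoxifen libraries, against 7220.3, 5080.1 and 6324 in untreated libraries. A single tamoxifen library, replicate 2, was above all untreated ones, and the other tamoxifen values lay within the untreated range. The mean was 7574 ± 3368 in tamoxifen cells and 6208 ± 1075 in untreated cells (SD, n = 3 each), with a log2 fold change of 0.22 ± 0.31 (SE; adjusted p 0.823, limma). Its sign rested on that library, since without tamoxifen replicate 2 it was -0.13. On scaled RPM the same library was nearer the rest, at 149.9, beside 109.8 and 114 in the other tamoxifen libraries and 116, 135 and 139 in the untreated libraries.

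Nr0b1 (ENSMUSG00000025056, chrX:86191764-86195947; also called Dax1), an orphan nuclear receptor that binds Pou5f1, had values of 1887, 2247 and 1742 in tamoxifen libraries, against 2209, 2803 and 2489 in untreated libraries. The groups met only at tamoxifen replicate 2 and untreated replicate 1. Nr0b1 averaged 1958 ± 260.0 in tamoxifen cells, 78.3% of the 2500.0 ± 297 in untreated cells (SD, n = 3 each). The log2 fold change was -0.35 ± 0.15 (SE), with an unadjusted p of 0.0493 and an adjusted p of 0.529 (limma). On scaled RPM Nr0b1 was at 24.9, 32.8 and 23.6 in tamoxifen libraries, all below the 37.0, 51.0 and 37.8 of the untreated libraries. The difference on reads was -0.62 on the log2 scale with a 95% interval of -1.10 to -0.14 and an adjusted p of 0.517 (limma), so it was not called on either scale.

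Utf1 (ENSMUSG00000047751, chr7:139943789-139945112), which binds chromatin at bivalent promoters, had values of 8435, 9709 and 8689.7 in tamoxifen libraries, against 9866, 8437 and 9865 in untreated libraries. The groups overlapped, and the log2 fold change was -0.07 ± 0.12 (SE; adjusted p 0.858, limma). On reads it was -0.46 (adjusted p 0.632, limma), from 74.6, 87.9 and 92.5 scaled RPM in tamoxifen libraries and 90.0, 123 and 143 in untreated libraries. On that scale only untreated replicate 1 fell within the tamoxifen range.

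Lin28a (ENSMUSG00000050966, chr4:134003330-134018841), whose let-7 sites are printed above, had values of 7979, 10227 and 6909.6 in tamoxifen libraries, against 8797, 6909.7 and 7862 in untreated libraries. Its groups overlapped throughout, at 8372 ± 1693 in tamoxifen cells and 7856 ± 944 in untreated cells (SD, n = 3 each). The log2 fold change was 0.08 ± 0.18 (SE; adjusted p 0.9, limma) and was -0.20 on reads (adjusted p 0.811, limma), so its sign depended on the scale. On values the sign also turned without tamoxifen replicate 2 (-0.074) or without untreated replicate 2 (-0.0095). Gm13061 is annotated antisense over 695 bases of Lin28a, as are Gm14261 over 1801 bases of Sall4 and Gm19553 over 1475 bases of Pou5f1. The libraries were directional, but whether counting used the strand is not given in the sources used here, so reads of such pairs may not be separated.

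Dppa4 (ENSMUSG00000058550, chr16:48283733-48294237) had the largest difference of the 10 genes on deposited values. It stood at 1362, 1430.0 and 1343 in tamoxifen libraries, against 2024, 1859 and 2139 in untreated libraries. Each tamoxifen value was below every untreated value, and the values within each group were close. Dppa4 averaged 1378 ± 45.6 in tamoxifen cells, 68.7% of the 2008 ± 141 in untreated cells (SD, n = 3 each). The log2 fold change was -0.54 ± 0.10 (SE), with an interval of the ratio of 0.578 to 0.819, an unadjusted p of 0.00177 and an adjusted p of 0.195 (limma). An exact permutation test on Dppa4 alone gave p = 0.1, two-sided, the smallest it can give for 3 against 3.

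The recovered reads of Dppa4 showed the same order. Scaled RPM values were 31.4, 31.2 and 29.6 in tamoxifen libraries and 47.5, 47.0 and 47.1 in untreated libraries, from 94 to 181 reads in tamoxifen libraries and 86 to 255 in untreated libraries. The log2 fold change on reads was -0.61, with a 95% interval of -0.99 to -0.23 (adjusted p 0.391, limma). The spread of Dppa4 within groups was small on both scales, set beside 5438 genes with at least 100 reads on average. On deposited values its pooled SD was 0.0796 on the log2 scale (percentile 4.05), beside a median of 0.225 over those genes. On log2(RPM + 0.1) its pooled SD was 0.0326 (percentile 0.0552), beside a median of 0.275. The lowest Dppa4 count, 86 reads, has an exact 95% Poisson interval of 68.8 to 106 from counting error alone. So small an SD therefore does not show how precisely Dppa4 was measured. For Sox2 and Sall4 the scales differed, with pooled SDs on deposited values of 0.453 (percentile 88.4) and 0.456 (percentile 88.7). On RPM they were 0.202 for Sox2 (percentile 27.8) and 0.199 for Sall4 (percentile 26.7). Dppa4 shares sequence with 3 pseudogenes that were not analysed here, and their part in its reads was not tested.

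Dppa2 (ENSMUSG00000072419, chr16:48303908-48319723) starts 9670 bases beyond the end of Dppa4 on the same strand of chromosome 16. It had values of 856, 1148 and 769 in tamoxifen libraries, against 983, 1129 and 1039 in untreated libraries. Tamoxifen replicates 1 and 3 were below all untreated libraries and replicate 2 was above them. The mean was 924 ± 198 in tamoxifen cells and 1050.1 ± 73.7 in untreated cells (SD, n = 3 each), with a log2 fold change of -0.20 ± 0.18 (SE; adjusted p 0.766, limma). It was -0.37 without tamoxifen replicate 2 and -0.081 without tamoxifen replicate 3. The value ratio of Dppa4 to Dppa2 was 1.59, 1.25 and 1.75 in tamoxifen libraries and 2.06, 1.65 and 2.06 in untreated libraries. Those ratios overlapped between groups (difference in log2 ratio -0.34, exact permutation p 0.2, two-sided). On recovered reads the ratio was 2.0, 1.40 and 2.23 in tamoxifen libraries and 2.26, 2.32 and 2.87 in untreated libraries. There the groups did not overlap (difference in log2 ratio -0.42, exact permutation p 0.1, two-sided, the smallest possible). The gap was narrow, between 2.23 in tamoxifen replicate 3 and 2.26 in untreated replicate 1. Dppa2 had 53, 67 and 81 reads in tamoxifen libraries and 92, 110 and 30 in untreated libraries. Its lowest count, 30 reads, has an exact Poisson interval of 20.2 to 42.8 from counting error alone. So narrow a gap at such counts does not show a difference in the ratio beyond counting error.

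The copy Gm9788, which is listed with values of its own, was at 1294, 1489 and 1338 in tamoxifen libraries and 1336, 1377 and 752 in untreated libraries. It rested on 12, 14 and 21 reads in tamoxifen libraries and 16, 24 and 2 reads in untreated libraries (adjusted p 0.766, limma). It took 18.5%, 17.3% and 20.6% of the reads of the pair in tamoxifen libraries and 14.8%, 17.9% and 6.25% in untreated libraries. Counting the reads of both as one gave 19.2, 26.9 and 16.7 scaled RPM in tamoxifen libraries and 24.7, 24.7 and 17.5 in untreated libraries. The groups overlapped, at 20.9 ± 5.29 scaled RPM in tamoxifen cells and 22.3 ± 4.12 in untreated cells (SD, n = 3 each).

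Dppa3 (ENSMUSG00000046323, chr6:122626410-122630272) was the least abundant of the 10, with 14, 8 and 14 reads in tamoxifen libraries and 13, 14 and 5 in untreated libraries. A count of 5 has an exact 95% Poisson interval of 1.62 to 11.7, which covers counting error only. Its deposited values were 648, 597 and 542 in tamoxifen libraries and 599.7, 581 and 592 in untreated libraries. They were far closer than the reads: one read of Dppa3 carried a value of 38.7 to 118, depending on the library, against 6.53 to 37.9 for the other 9 genes. The log2 fold change was 0.01 ± 0.14 (SE; adjusted p 1, limma), and at this depth a difference in Dppa3 of the size seen for Dppa4 was not detectable on reads, where its 95% interval ran from -0.70 to 0.86. Without tamoxifen replicate 1 it was -0.055 on values, and without untreated replicate 2 it was -0.0046.

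Dppa5a (ENSMUSG00000060461, chr9:78367052-78368177) had values of 15296, 14770.3 and 13332 in tamoxifen libraries, against 18664, 12914 and 12065 in untreated libraries. The tamoxifen values lay inside the untreated range, with a log2 fold change of 0.02 ± 0.19 (SE; adjusted p 0.996, limma). It turned negative without tamoxifen replicate 1 (-0.025), untreated replicate 2 (-0.055) or untreated replicate 3 (-0.10). Scaled RPM values were 179, 157 and 170.0 in tamoxifen libraries, all below the 203, 215 and 195 of untreated libraries. The log2 fold change on reads was -0.28 (adjusted p 0.715, limma). Its listed relatives showed no called difference either. Gm10112 was at 2348, 1716 and 3039 in tamoxifen libraries and 2969, 2380.4 and 3016 in untreated libraries (adjusted p 0.766, limma). It rested on 5, 2 and 17 reads in tamoxifen libraries and 10, 7 and 5 in untreated libraries, few for detecting a difference. Pigp, whose span contains the copy Gm15310, was at 837, 953 and 915 in tamoxifen libraries and 963, 759 and 845 in untreated libraries (adjusted p 0.866, limma).

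**Figure D3:**
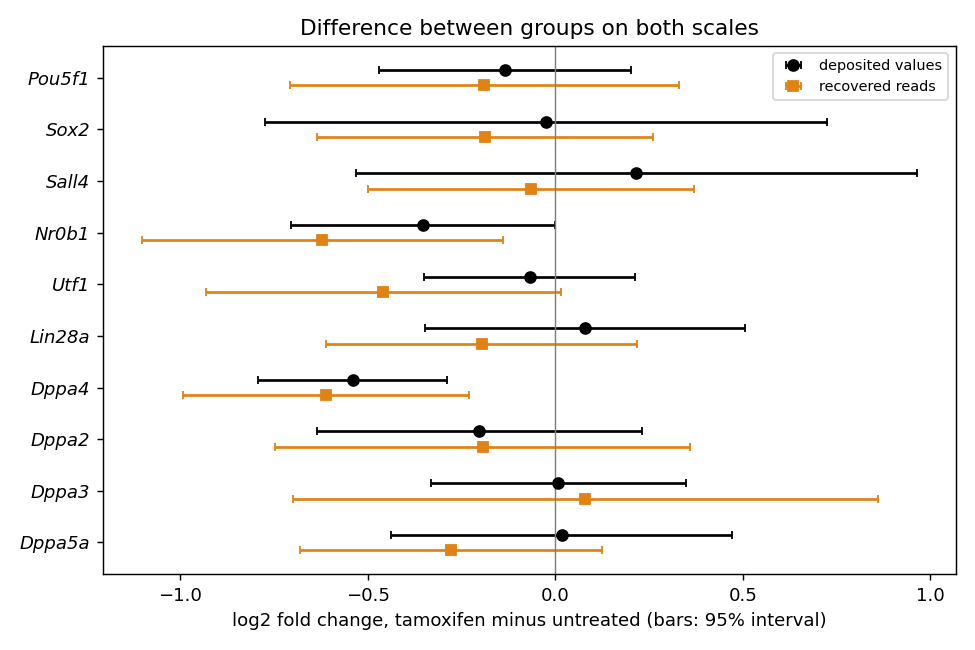
Log2 fold change of each gene, tamoxifen minus untreated, on deposited values (black circles) and on recovered reads (orange squares), with 95% intervals as bars. On values 6 genes lie below 0 and on reads 9 do. Both intervals of Dppa4 and of Nr0b1 lie below 0, with an upper end at -0.0014 for Nr0b1 on values.

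The order of the genes was read from scaled RPM per kilobase of exon, which adjusts for gene length. The length was that of all annotated exons merged. For Pou5f1 it was 2248 bases, beside 1362 in its longest coding transcript, and for Dppa5a it was 619 in both. The levels therefore depend on the length used, and for the Dppa genes also on how shared reads were counted. Dppa5a was the most abundant, at 272 ± 17.7 in tamoxifen cells and 329.9 ± 16.9 in untreated cells (SD, n = 3 each), rank 98 of 20273 genes with a symbol. Pou5f1 followed, at 129 ± 7.37 in tamoxifen cells and 149 ± 37.7 in untreated cells (rank 179), and was below Dppa5a in all 6 libraries. Sox2 was at 77.7 ± 11.2 and Utf1 at 69.2 ± 7.56 in tamoxifen cells, and they were at 88.4 ± 12.2 and 96.7 ± 21.7 in untreated cells. Sox2 exceeded Utf1 in 3 of 6 libraries, so these neighbours in the order did not differ beyond their spread. Lin28a came next, at 42.2 ± 4.72 in tamoxifen cells and 48.3 ± 2.5 in untreated cells (rank 621).

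Dppa4, Sall4 and Nr0b1 formed the next group. Dppa4 was at 18.5 ± 0.578 in tamoxifen cells and 28.4 ± 0.164 in untreated cells. These SDs do not show the precision of Dppa4, whose counting error is given above. Sall4 was at 22.5 ± 3.96 in tamoxifen cells and 23.4 ± 2.23 in untreated cells, and Dppa4 exceeded it in 3 of 6 libraries, the untreated ones. Nr0b1 was at 14.98 ± 2.77 in tamoxifen cells and 23.2 ± 4.35 in untreated cells, below Sall4 in 5 of 6 libraries. Dppa2 was at 6.97 ± 1.89 in tamoxifen cells and 7.86 ± 1.0 in untreated cells (rank 4189), and Dppa3 at 3.40 ± 1.10 in tamoxifen cells and 3.10 ± 0.22 in untreated cells (rank 7265). All 10 genes together took 0.0949%, 0.140% and 0.126% of the reads in tamoxifen libraries and 0.136%, 0.132% and 0.0844% in untreated libraries, so the shares overlapped.

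**Figure D4:**
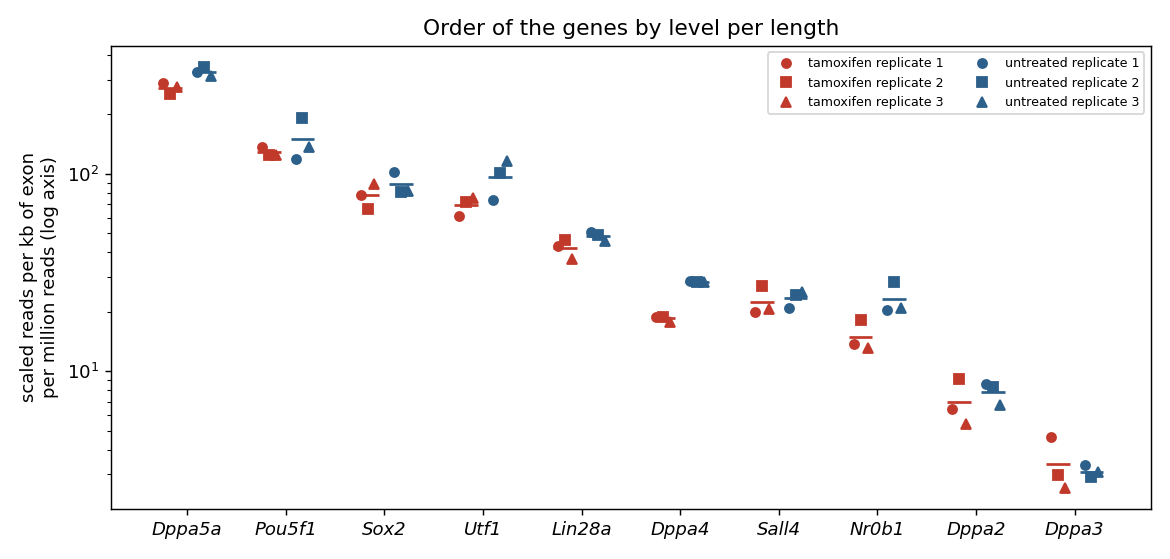
Scaled RPM per kilobase of exon for each gene in each library (log axis), genes in order of their mean level, tamoxifen in red to the left of untreated in blue, lines at group means. Levels run from Dppa5a (272 in tamoxifen cells and 329.9 in untreated cells) to Dppa3 (3.40 in tamoxifen cells and 3.10 in untreated cells).

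The genes around the Dppa loci did not all lie on one side. On chromosome 16, Morc1, a germline silencing factor whose gene lies beyond Dppa2, had values of 2005, 1372 and 1519 in tamoxifen libraries and 2394, 3620.4 and 3639 in untreated libraries. Its groups did not overlap, with a log2 fold change of -0.97 ± 0.22 (SE), but it was not called (adjusted p 0.285, limma). On chromosome 6, Nanog, a homeobox factor of the same network and a neighbour of Dppa3, was at 7006, 6257 and 8311 in tamoxifen libraries and 5527, 4224 and 4815 in untreated libraries. Nanog was higher in all 3 tamoxifen libraries, by 0.57 ± 0.15 on the log2 scale (SE; adjusted p 0.357, limma). Gdf3, a TGF-beta family ligand beside Dppa3, was at 2879, 3599 and 3259.9 in tamoxifen libraries and 3036, 3717 and 3413 in untreated libraries, with overlapping groups (adjusted p 0.888, limma). The glucose transporter gene Slc2a3 was at 82366, 50310.1 and 82367 in tamoxifen libraries and 31822, 55878 and 55875 in untreated libraries (adjusted p 0.625, limma). Of 24 neighbours tested around the 10 genes, 13 were higher and 11 lower, with a median of 0.17, none called by limma, and 1 higher (Nanog) and 1 lower (Morc1) at an unadjusted p under 0.05.

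**Figure D5:**
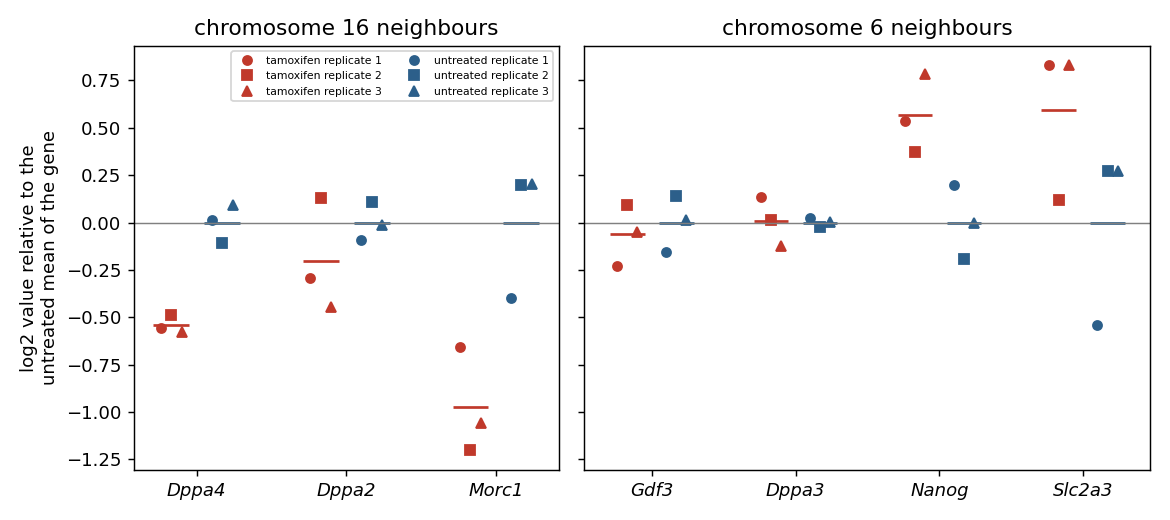
Log2 of the deposited value relative to the mean log2 value of the untreated libraries, for Dppa4, Dppa2 and Morc1 on chromosome 16 and for Gdf3, Dppa3, Nanog and Slc2a3 on chromosome 6. Tamoxifen libraries are in red to the left of untreated libraries in blue, and lines mark group means. Dppa4 and Morc1 lie below the untreated libraries in all 3 tamoxifen libraries and Nanog lies above them, and none of the genes was called.

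Other members of the pluripotency network were compared as a list of 34 tested genes, of which 18 were higher and 16 lower, with none called by limma and a median log2 fold change of 0.07. At an unadjusted p under 0.05, 5 were higher and 1 was lower. Tfcp2l1, a transcription factor of the naive state, was at 5411, 5819 and 5878 in tamoxifen libraries and 3796, 2939 and 3892 in untreated libraries (log2 fold change 0.70 ± 0.14 SE, adjusted p 0.195, limma). Tbx3, a T-box factor also used in endoderm, was at 4262, 5167 and 5099 in tamoxifen libraries and 3192, 2063 and 2665 in untreated libraries (0.89 ± 0.18 SE, adjusted p 0.213, limma). Both had every tamoxifen library above every untreated one, as Nanog did. Of the 34 genes, 6 had groups that did not overlap and were higher and 4 were lower (Nacc1, Tcea3, Zfp143 and Zfp42), beside 7.92% higher and 7.33% lower over all genes. Prdm14, which restrains DNA methylation in naive cells, had a log2 fold change of 0.62 ± 0.24 (SE; adjusted p 0.526, limma).

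Proteins that partner with Pou5f1 and subunits of the NuRD nucleosome-remodelling complex gave 8 higher and 13 lower of 21 tested, with a median of -0.05, none called by limma and 1 lower at an unadjusted p under 0.05. The RNA- and DNA-binding protein Nono was at 3931, 3853 and 3873 in tamoxifen libraries and 4574, 5411 and 5244 in untreated libraries, without overlap (-0.38 ± 0.10 SE, adjusted p 0.342, limma). The histone-binding subunits Rbbp7 and Rbbp4 had log2 fold changes of -0.36 and -0.26, and the chromatin remodeller Smarca4 had -0.21, with groups that overlapped for Rbbp4 and Smarca4 and not for Rbbp7 (adjusted p 0.592 for Rbbp7, limma). Relatives of Sox2 and Pou5f1 in the SoxB and POU families, with a few other Sox genes, gave 2 higher and 10 lower of 12 tested, with a median of -0.32. None was called by limma, 1 higher and 2 lower had an unadjusted p under 0.05, and only 8 of them had at least 10 reads on average. Sox12 was at 1484, 1247 and 1487 in tamoxifen libraries and 2138, 1633 and 1998 in untreated libraries (-0.45, adjusted p 0.457, limma). Sox3 was lower without overlap (-0.98 ± 0.35 SE, adjusted p 0.494, limma). It rested on only 1, 2 and 3 reads in tamoxifen libraries and 6, 14 and 2 in untreated libraries. Sox11 was lower with overlapping groups (-0.54 ± 0.29 SE, adjusted p 0.626, limma). Sox7, an endoderm factor, is also one of the 12 primitive endoderm markers counted above. It was at 347, 445 and 388 in tamoxifen libraries and 249.8, 250.4 and 265 in untreated libraries (0.62 ± 0.19 SE, adjusted p 0.434, limma). Sox7 rested on 9, 12 and 21 reads in tamoxifen libraries and 6, 7 and 3 in untreated libraries. The closeness of its values therefore does not show how precisely it was measured.

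Genes listed by name as 2-cell embryo genes that depend on Dppa2 and Dppa4 had few reads, apart from Eif1a. Whether Eif1a itself depends on them was not tested, so its values are not taken as a measure of that programme. Of 16 tested, 7 were higher and 9 lower, with a median of -0.03. None was called by limma, 0 had an unadjusted p under 0.05, and Eif1a alone had at least 10 reads on average. Eif1a, a gene of a translation initiation factor family, had values of 6257, 6763 and 5644 in tamoxifen libraries and 6034, 4204 and 4163 in untreated libraries. Its groups overlapped, with a log2 fold change of 0.39 ± 0.17 (SE; adjusted p 0.545, limma), from 415, 417 and 674 reads in tamoxifen libraries and 655, 541 and 152 in untreated libraries. Zscan4f, a telomere and 2-cell factor, had 4, 3 and 4 reads in tamoxifen libraries and 3, 5 and 0 in untreated libraries. Zscan4c, its near-identical relative, had 1, 3 and 4 reads in tamoxifen libraries and 3, 3 and 2 in untreated libraries. No difference was detectable in Zscan4f or Zscan4c at this depth.

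The Lin28 and let-7 pathway gave 11 higher and 13 lower of 24 tested, with a median of -0.02, none called by limma, and 2 higher and 1 lower at an unadjusted p under 0.05. Hmga2, a chromatin protein and a known let-7 target, was at 117, 487 and 409 in tamoxifen libraries and 88.3, 49.5 and 78.2 in untreated libraries. Every tamoxifen library was above the untreated ones, but they spread widely (2.02 ± 0.61 SE, adjusted p 0.417, limma). Tut7, a uridylyltransferase that tags let-7 precursors, was at 905, 915 and 1071 in tamoxifen libraries and 779, 497 and 545 in untreated libraries (0.69 ± 0.20 SE, adjusted p 0.405, limma). Cdk6, a cell-cycle kinase and let-7 target, was lower, at 234, 331 and 195 in tamoxifen libraries and 507, 409 and 369.5 in untreated libraries (-0.78 ± 0.27 SE, adjusted p 0.485, limma). Ccnd2, of the same list, was at 282, 223 and 292 in tamoxifen libraries and 175, 136 and 212 in untreated libraries (0.62 ± 0.28 SE, adjusted p 0.55, limma). Of the targets named here, Hmga2 was thus higher and Cdk6 lower, and let-7 activity was not tested.

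Among Dppa, Khdc and maternal-effect relatives, 4 were higher and 3 lower of 7 tested, with a median of 0.25, none called by limma and 0 at an unadjusted p under 0.05. The median turned negative on recovered reads (-0.22), among genes with at least 10 reads on average (-0.046) and without untreated replicate 1 (-0.11). Uhrf1, a cofactor of maintenance DNA methylation whose nuclear location Dppa3 controls in oocytes, was at 22614, 31808 and 27267 in tamoxifen libraries and 36091, 29428 and 31808 in untreated libraries (-0.26, adjusted p 0.707, limma). Its partner Dnmt1, the maintenance DNA methyltransferase, had a log2 fold change of 0.25 (adjusted p 0.766, limma), and both genes had overlapping groups.

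The genes most like Pou5f1 and Dppa4 across the 6 libraries were found by Pearson correlation of log2 values among 7934 genes with at least 50 reads on average. For Pou5f1 these were Mrps17 (r = 0.979), Pld3 (r = 0.976) and Mphosph6 (r = 0.971), and 18 genes had r over 0.95. For Dppa4 they were Lss (r = 0.995), Rmnd1 (r = 0.990) and Sinhcaf (r = 0.988), and 28 genes had r over 0.95. The correlations are given as descriptions, since the 6 points share both libraries and groups. Lss, an enzyme of cholesterol synthesis, was at 1625, 1907 and 1635 in tamoxifen libraries and 3095, 2706 and 3570.4 in untreated libraries, the same order of groups as Dppa4.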

How the data were processed

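Total RNA depleted of ribosomal RNA was sequenced from 3 tamoxifen and 3 untreated libraries. The deposited table holds a normalized signal per gene, and the submitters' processing notes name TopHat2, bedtools, DESeq2 and the build mm9, without versions. Per the file headers, columns carry genotype and replicate number only. Each deposited value above 0 had the form 9.73 × k × (m + 0.1)/(k + 0.1), with k and m whole numbers (largest relative misfit 5.11e-15), and k was taken as the read count. One solution existed for 98.8% of 100305 values. Tested on simulated data, the solver returned 99.9% of 9928 read counts.

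A single size factor per library had been assumed when the test was chosen, which this form does not have, and the test was kept. It was limma 3.58.1 (R 4.3.3, trended variance) on log2(value + 1) of every gene whose mean value reached 10. Fold changes are on that scale, where a library with 0 reads can give a large change from few reads. Zscan4f is such a case, at 2.98 from 4, 3 and 4 reads in tamoxifen libraries and 3, 5 and 0 in untreated libraries. Differences on reads used limma on log2 RPM with a prior count of 2 and trimmed-mean scaling (factors 0.681 to 1.29). Alternatives changed the pseudocount, filter, trend, scaling, reads, GC and length correction, replicates and the replicate block. Levels per kilobase used GENCODE vM21 exon lengths. The 95% intervals of fold changes come from the spread between libraries, and the Poisson interval of a read count covers counting error only.

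The 10 genes and all lists were chosen with earlier results of these data known. List genes were named by the smallest p-values among those with a mean value of at least 50, at most 4 per list. Gdf3, Slc2a3, Gm9788, Gm10112 and Pigp were added for their position or sequence after their values were seen. Same-numbered libraries did not deviate together (correlations of -0.0071, -0.0489 and 0.0047), so replicate numbers were not treated as pairs.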

Additional observations from a re-analysis of the deposited data

How the results depend on the processing

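None of the 10 genes was called under any of the 18 alternatives, 17 planned and 1 chosen after seeing the data (recovered reads limited to genes with at least 10 on average). These are not 18 separate checks. On deposited values the filters, the trend and the replicate block leave the fold changes of the 10 genes as they were. Sorted by size, the m of the libraries differed by at most 4 at any rank. Quantile normalization of the deposited values could therefore change little. Dppa4 stayed between -0.61 and -0.49 (adjusted p 0.115 to 0.513, limma). On recovered reads, with and without the added limit, 1 gene was higher, the median of the 10 was -0.20, and Sall4 (-0.066), Dppa5a (-0.28) and Lin28a (-0.20) reversed. After correction for GC and length 1 was higher, and those 3 were at -0.043, -0.12 and -0.15. Quantile normalization reversed Dppa3 (-0.0051). The cause was not tested.

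Leaving out each replicate gave 1 to 5 genes higher and 5 to 9 lower, a median of -0.13 to -0.0063, Pou5f1 at -0.25 to -0.033, Utf1 at -0.14 to -0.028, Dppa2 at -0.37 to -0.081, Sox2 at -0.25 to 0.33, Sall4 at -0.13 to 0.39, Dppa3 at -0.055 to 0.074, Dppa5a at -0.10 to 0.21, Lin28a at -0.074 to 0.21, and the log2 ratio of Sox2 to Pou5f1 at -0.13 to 0.36. List medians then ran from -0.040 to 0.25 (pluripotency network), -0.13 to -0.0012 (Pou5f1 partners and NuRD), -0.37 to -0.19 (SoxB and POU relatives), -0.071 to 1.17 (2-cell genes), -0.056 to 0.056 (Lin28 and let-7), -0.11 to 0.21 (Dppa, Khdc and maternal) and 0.017 to 0.15 (neighbours).

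The medians on recovered reads, after the GC and length correction and under the added limit were -0.22, -0.22 and -0.23 for Pou5f1 partners and NuRD, -0.22, -0.19 and -0.22 for Dppa, Khdc and maternal relatives, and 0.069, 0.066 and 0.039 for neighbours. Keeping genes with at least 10 reads gave -0.15 for SoxB and POU relatives, -0.046 for Dppa, Khdc and maternal relatives and 0.051 for neighbours. With the replicate block no gene changed its call among the 10 (Dppa4 adjusted p 0.513, limma), and 0 of all genes were called, against 34 without it, 3 on recovered reads, 5 with the added limit, 15 with the read filter, 20 with GC and length removed, 52 with a pseudocount of 10 or with no filter on values, 62 without the trend, and 66 to 103 with a replicate left out. At 8 to 14 reads per tamoxifen library and 5 to 14 per untreated library, depth limits Dppa3 most.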
